A study of Mus musculus with 6 samples.

Results

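The genes of the circadian clock examined here were 10 genes picked by name from the authors' table of all genes: *Clock*, *Arntl*, *Npas2*, *Per1*, *Per2*, *Per3*, *Cry1*, *Cry2*, *Nr1d1* and *Dbp*. All 10 were found among the 19270 genes of the table. RNA was sequenced from the proximal region of the incisor of 3 control and 3 *Arid1b* mutant mice. The mice were 1 month of age, 4 days after tamoxifen induction. The study's methods describe the dissected tissue as proximal mesenchyme of the incisor. The mutants were *Gli1-CreER;Arid1bfl/fl* mice, in which tamoxifen activates Cre recombinase in *Gli1*-expressing cells, and the GLI1+ lineage gives rise to both dental mesenchyme and dental epithelium. The controls are labelled wild type, whereas the study's methods describe them as *Arid1bfl/fl* mice given the same tamoxifen injections, and all 6 mice therefore received tamoxifen. The hour of the day at which the incisors were taken is not given in the sources used here. The table gives 1 mean per gene and group, so that each value below is the authors' mean of 3 libraries without an SD, and no test against the spread between mice could be made.

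The clock is a feedback loop of transcription that runs in nearly every cell with a period of about a day. CLOCK, or its relative NPAS2, pairs with BMAL1, the product of *Arntl*, and activates genes that carry E-box sequences, among them the *Per* and *Cry* genes, *Nr1d1* and *Dbp*. PER and CRY proteins return to the nucleus and inhibit the activators, and NR1D1 (REV-ERBα) represses *Arntl* through response elements shared with the ROR receptors. In peripheral tissues *Arntl* and *Npas2* therefore peak at nearly the opposite time of day from *Nr1d1*, *Dbp* and *Per3*, whereas *Clock* varies less. Clock genes are known to be expressed in ameloblasts and odontoblasts, and the daily lines of enamel and dentin are a classical rhythm of the growing tooth. *Per1* has further inputs, since glucocorticoid receptor and the cAMP-responsive factor CREB also drive its transcription.

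The sequences through which the clock factors are known to act were looked up in the promoters of these genes, in the RefSeq sequences of GRCm38.p6 that run from 250 bases before to 50 bases after a start site. A promoter was found for 9 of the 10 genes, with 13 start sites in all. *Per2* had no entry. The letters searched on both strands were CACGTG for the E-box, CACGTT for the related E′-box, TTATGTAA for the D-box bound by DBP and its relatives, TAGGTCA or TGGGTCA for the ROR and REV-ERB response element (RORE), and TGACGTCA for the CREB site. At least 1 match was found for 6 genes. The stretches below are shown because they belong to the genes that differed most between the groups (*Per1*, *Nr1d1*), to the gene of the opposite phase (*Arntl*), and to the genes with a pair of matches (*Cry1*, *Per3*). Each is written 5′ to 3′ on the strand of its gene, with the matched letters in capitals.
Per1, E-box, chr11:69098763-69098808, plus strand: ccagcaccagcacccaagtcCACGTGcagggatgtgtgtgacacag
Nr1d1, E′-box on the other strand, chr11:98775380-98775425, minus strand: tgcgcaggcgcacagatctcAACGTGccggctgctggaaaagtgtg
Arntl, RORE, chr7:113207530-113207558, plus strand: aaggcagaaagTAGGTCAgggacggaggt
Cry1, E′-box on the other strand and E-box, chr10:85185089-85185153, minus strand: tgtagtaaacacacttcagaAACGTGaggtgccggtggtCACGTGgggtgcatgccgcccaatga
Per3, D-boxes, chr4:151044796-151044890, minus strand: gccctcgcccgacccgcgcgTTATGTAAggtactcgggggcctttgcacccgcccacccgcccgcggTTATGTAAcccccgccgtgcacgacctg

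The E-box of *Per1* began 166 bases before the first of its 2 listed start sites, and the other had no match. This E-box lies within the annotated span of *Per1*, after the annotated start of the gene. The E′-box of *Nr1d1* began 28 bases before its start site. The matches of *Cry1* began 79 and 60 bases before the start, and the D-boxes of *Per3* 205 and 158 bases before. The RORE of *Arntl* lay 30 bases after the second of its 2 listed start sites. *Cry2* had an E′-box 166 bases before its start. *Clock*, *Npas2* and *Dbp* had none of these letters in the window, and no promoter of the 9 genes had the CREB site. Of all 32851 promoters of the table, 7.15% held the E-box, 4.68% the E′-box, 0.938% the D-box, 6.45% a RORE and 1.79% the CREB site. A match describes the letters only, and longer-range elements lie outside the window.

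**Figure D1:**
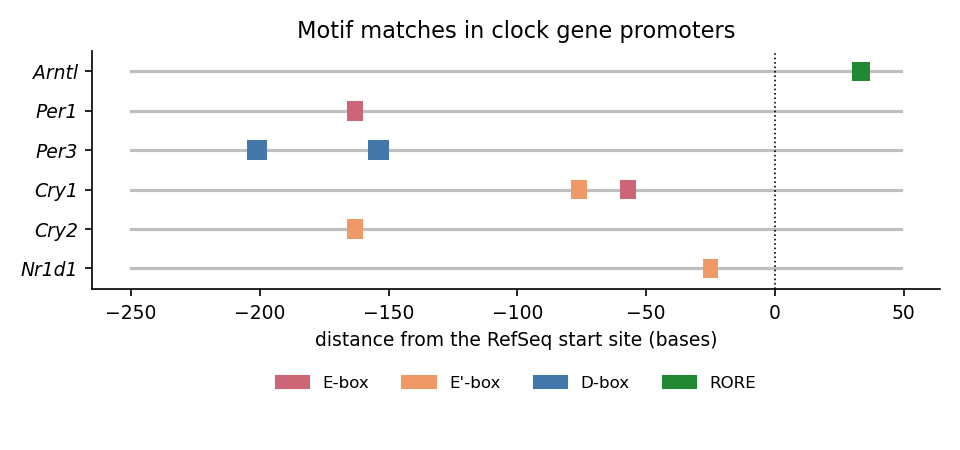
Motif matches in the promoters of 6 clock genes, by distance from the RefSeq start site in bases (dotted line at 0). Each bar is a match as long as the motif, and grey lines mark the window searched. *Per3* holds 2 D-boxes, whereas the E-box and E′-box matches lie in *Per1*, *Cry1*, *Cry2* and *Nr1d1*.

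All 10 clock genes were detected in both groups. Their group means of normalized signal ranged from 5.20 to 122.6 in control mice and from 4.45 to 120.8 in mutant mice. If the lowest value of a library is that of a gene without reads, these libraries held between 37123643 and 49594469 reads on the listed genes, and the least expressed member, *Npas2*, had about 200 reads per control library and 192 per mutant library. The reads per gene are estimates, since the files give no counts.

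*Clock*, which encodes the histone acetyltransferase partner of the activating pair (chr5:76209868-76304792), averaged 122.6 in controls and 120.8 in mutants. Its difference was -0.02 on the log2 scale. *Arntl*, which encodes BMAL1 and is the activator that the clock cannot replace (chr7:113207465-113314126), averaged 13.3 in controls and 13.2 in mutants, also a log2 difference of -0.02. *Npas2*, the *Clock* paralog (chr1:39193731-39363236), averaged 5.20 in controls and 4.45 in mutants, a log2 difference of -0.23. The 2 core activators thus had nearly the same mean in both groups, and when the summed signal of all genes was made equal the differences of *Clock* and *Arntl* became 0.04 and 0.04.

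Among the *Per* and *Cry* genes, *Per1* differed most. This gene (chr11:69095217-69109960), which responds to hormones and acute signals as well as to the clock, averaged 33.1 in controls and 25.0 in mutants, which is 24.5% less, with a log2 difference of -0.41. *Per2*, the period gene whose loss most disturbs rhythms (chr1:91415982-91459324), averaged 18.2 in controls and 17.8 in mutants with a log2 difference of -0.03, which was 0.04 with equal summed signal. *Per3*, the period gene most dispensable for the core loop (chr4:151003652-151044665), averaged 51.3 in controls and 45.3 in mutants, 11.7% less in the mutants, with a log2 difference of -0.18. The *Per* genes were spread over 0.38 on the log2 scale between *Per1* and *Per2*.

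*Cry1* and *Cry2* encode the cryptochromes that hold the activators in check. *Cry1* (chr10:85131700-85185064) averaged 20.4 in controls and 22.5 in mutants, a log2 difference of 0.14. *Cry2* (chr2:92403646-92434043) averaged 20.3 in controls and 22.04 in mutants, a log2 difference of 0.12. The cryptochrome genes therefore had nearly equal differences, 10.4% and 8.67% above the control means.

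*Nr1d1*, which encodes the repressor of *Arntl* (chr11:98767932-98775333), averaged 12.1 in controls and 16.1 in mutants, 33.2% more, with a log2 difference of 0.41. *Dbp*, which encodes the D-box activator and is among the strongest rhythmic outputs of the clock (chr7:45705088-45710203), averaged 24.9 in controls and 26.3 in mutants with a log2 difference of 0.08. These 2 genes, like *Per1* and *Per3*, are direct targets of the CLOCK and BMAL1 pair, and their means lay on the other side of the control level from those of *Per1* and *Per3*. Exons of *Nr1d1* overlap those of *Thra* on the opposite strand over 263 bases, 8.55% of its exon length, and *Thra* averaged 122.1 in controls and 115.8 in mutants. Exons of *Dbp* overlap *Sphk2* over 539 bases, and *Sphk2* averaged 20.8 in controls and 17.6 in mutants. *Arntl* and *Cry2* share 33 and 295 exon bases with antisense genes that were not analysed here. Whether reads were counted by strand is not given in the sources used here, so reads of these 4 genes and of their antisense partners cannot be told apart over the shared bases.

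**Figure D2:**
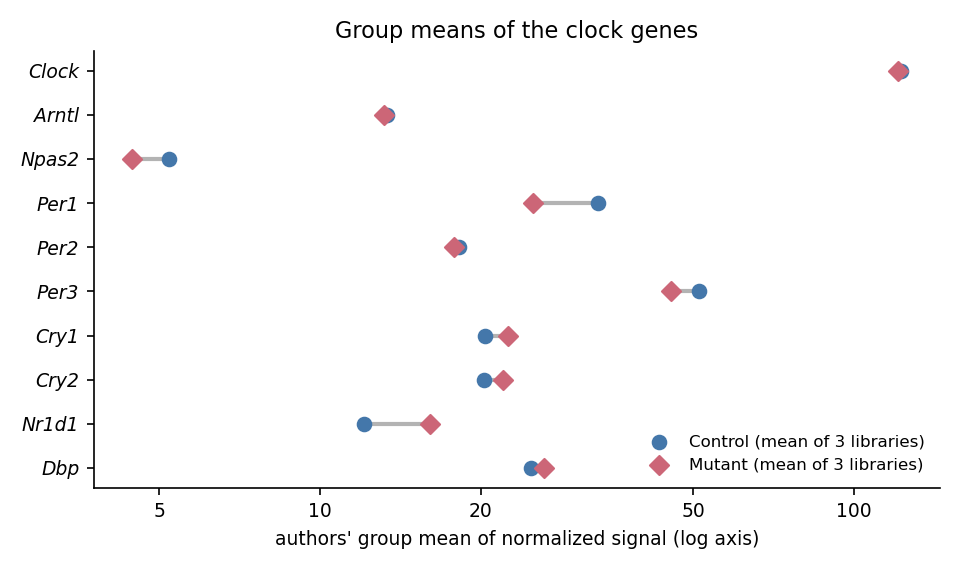
Authors' group means of normalized signal (log axis) for the 10 clock genes in control mice (circles) and *Arid1b* mutants (diamonds). Each point is the mean of 3 libraries without error bars, because 1 mean per group was used. *Per1* (33.1 and 25.0) and *Nr1d1* (12.1 and 16.1) show the widest gaps, in opposite directions.

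None of the 10 clock genes differed by more than 1.5-fold, the fold change threshold of the study, in either direction. The study combined this fold with a limit on the FDR, which was not applied here. The background was 7.37% of all 19270 genes higher and 5.8% lower in the mutants by that fold. Low means scatter more, and in 9 of the 10 clock genes the mean over both groups reached 10. Among the 10311 genes at that level, 2.15% were more than 1.5-fold higher and 0.912% more than 1.5-fold lower. At such rates 0 of 9 is near the background, and it does not set the clock genes apart. With a lower threshold of 25% above or 20% below the control mean, 1 clock gene was lower (*Per1*) and 1 was higher (*Nr1d1*), against 4.33% and 5.11% of the genes at that level.

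The median log2 difference of the 10 clock genes was -0.02, and that of all genes was 0.0022. Of the 10, 4 had a higher mean in the mutants and 6 a lower mean, and the values ran from -0.41 to 0.41. The median size of the difference regardless of sign was 0.12 for these 9 clock genes and 0.084 for all genes at that level. By the size of its difference *Nr1d1* ranked 627 and *Per1* ranked 651 among these 10311 genes. *Clock* and *Arntl* ranked 8849 and 9065, near the end of the same order.

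**Figure D3:**
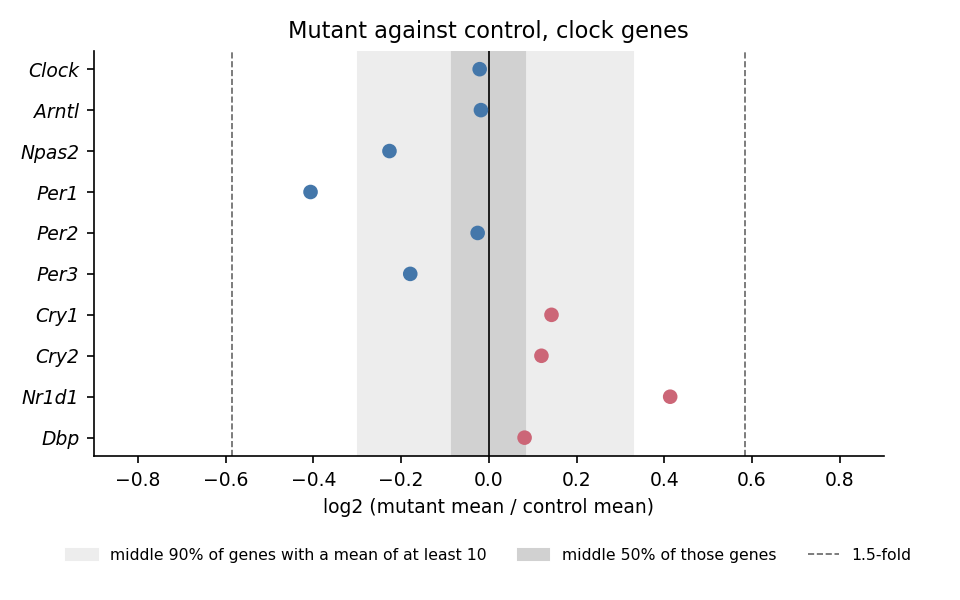
Log2 of the mutant mean over the control mean for the 10 clock genes, with the middle 50% and 90% of the 10311 genes whose mean reached 10 in grey and the 1.5-fold lines dashed. *Per1* (-0.41) and *Nr1d1* (0.41) lie outside the middle 90%, and no clock gene passes a 1.5-fold line.

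The members were also set against *Arntl* within each group, which removes the scaling of the libraries. The median log2 difference of *Per1*, *Per2*, *Per3*, *Nr1d1* and *Dbp* minus that of *Arntl* was -0.0074. *Per1* stood at 2.49 times the *Arntl* mean in the controls and at 1.90 times in the mutants. *Nr1d1* stood at 0.907 times *Arntl* in the controls and at 1.22 times in the mutants. The changes of the other targets relative to *Arntl* lay between those of *Per1* and *Nr1d1*. *Per3* went from 3.85 in the controls to 3.45 in the mutants, and *Dbp* went from 1.87 to 2.00. *Per2* was at 1.36 in both groups. *Clock* was 9.20 times *Arntl* in the controls and 9.18 times in the mutants. The changes of the target genes lay on both sides of that of *Arntl*. The ratio of *Nr1d1* to *Per1* went from 0.364 in the controls to 0.643 in the mutants. This is the widest change among the members by construction, since these genes had the highest and lowest log2 differences. Means over 3 mice would hide opposite phases of single mice within a group. The part of the time of collection in these values was not tested.

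Levels between genes were compared per kilobase of annotated exon. In the controls *Clock* (8.93 signal per kilobase) and *Dbp* (8.30) were at the top, followed by *Cry1* (6.11), *Per1* (5.89) and *Per3* (5.34). *Nr1d1* (3.93), *Cry2* (3.21) and *Per2* (3.10) came next, and *Arntl* (1.77) and *Npas2* (1.09) were lowest. In the mutants the order was the same except that *Nr1d1* (5.23) and *Per1* (4.44) exchanged places around *Per3* (4.72). *Clock* and *Dbp* differed least in the mutants, at 8.80 and 8.79. When the longest coding transcript was used as the length, *Dbp* came before *Clock*, *Per3* before *Cry1* and *Arntl* before *Per2* in both groups. *Per1* then also came before *Cry1*, and *Cry2* and *Arntl* before *Nr1d1*, in the controls, and *Cry2* came before *Per1* in the mutants. With either length *Per1* was above *Nr1d1* in the controls and below it in the mutants, but *Per3* lay between them only with the exon length, so much of this order depends on the transcript assumed. Without a spread between mice, neighbours in this order cannot be said to differ.

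The clock genes were next compared with 27 other genes of the pathway, all of which were in the table. None was more than 1.5-fold higher in the mutants and 1 was more than 1.5-fold lower, against the 7.37% and 5.8% of all genes given above. Their median log2 difference was 0.0035, and 20 of the 27 (74.1%) lay within 0.1 of no difference. Where the mean reached 10, this held for 17 of 22 pathway genes (77.3%), for 4 of the 9 members (44.4%) and for 56.9% of all genes at that level. The gene past 1.5-fold was *Rorb*, a ROR-family receptor best known from retina and brain, which averaged 4.60 in controls and 2.81 in mutants.

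In the second loop and among the output factors, 10 genes were compared and their log2 differences ran from -0.71 to 0.47. *Nr1d2*, the paralog of *Nr1d1* with an overlapping function, was far more abundant, averaging 131.8 in controls and 140.1 in mutants with a log2 difference of 0.09. The difference of *Nr1d1* exceeded that of *Nr1d2* by 0.33. *Tef* and *Hlf*, which encode the D-box activators related to *Dbp*, had log2 differences of 0.04 and 0.07, so that all 3 members of this family lay within 0.1 of no difference. *Nfil3*, the D-box repressor, was at -0.03, and *Arntl2*, the *Arntl* paralog, at -0.02. The ROR gene of broad expression, *Rora*, which activates *Arntl*, averaged 42.9 in controls and 41.0 in mutants.

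The basic helix-loop-helix repressors that compete at E-boxes were not alike. *Bhlhe40*, which is also induced by hypoxia and growth factors, averaged 12.9 in controls and 17.7 in mutants, a log2 difference of 0.46, whereas *Bhlhe41* averaged 20.8 and 19.9 with a log2 difference of -0.07. *Ciart*, a rhythmic repressor of the CLOCK and BMAL1 pair, had means of 0.692 and 0.958, a log2 difference of 0.47 at about 26 reads per control library. *Bhlhe40* and *Ciart* lay between *Nr1d1* and the 1.5-fold line.

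The kinases, ubiquitin ligases and other partners of the clock proteins numbered 12. In 11 of them the mean reached 10, and 9 of these 11 (81.8%) lay within 0.1 of no difference, beside the 56.9% of all genes at that level. None passed 1.5-fold, which is near the 2.15% and 0.912% of genes at that level. The casein kinase genes *Csnk1d* and *Csnk1e*, which phosphorylate PER, had log2 differences of -0.0044 and 0.04. The lowest of them was *Usp2*, a rhythmic deubiquitinase and a clock target, averaging 24.3 in controls and 19.6 in mutants with a log2 difference of -0.31. The 5 clock-controlled output genes ran from -0.13 (*Pim3*) to 0.02 (*Nampt*, the NAD synthesis enzyme).

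**Figure D4:**
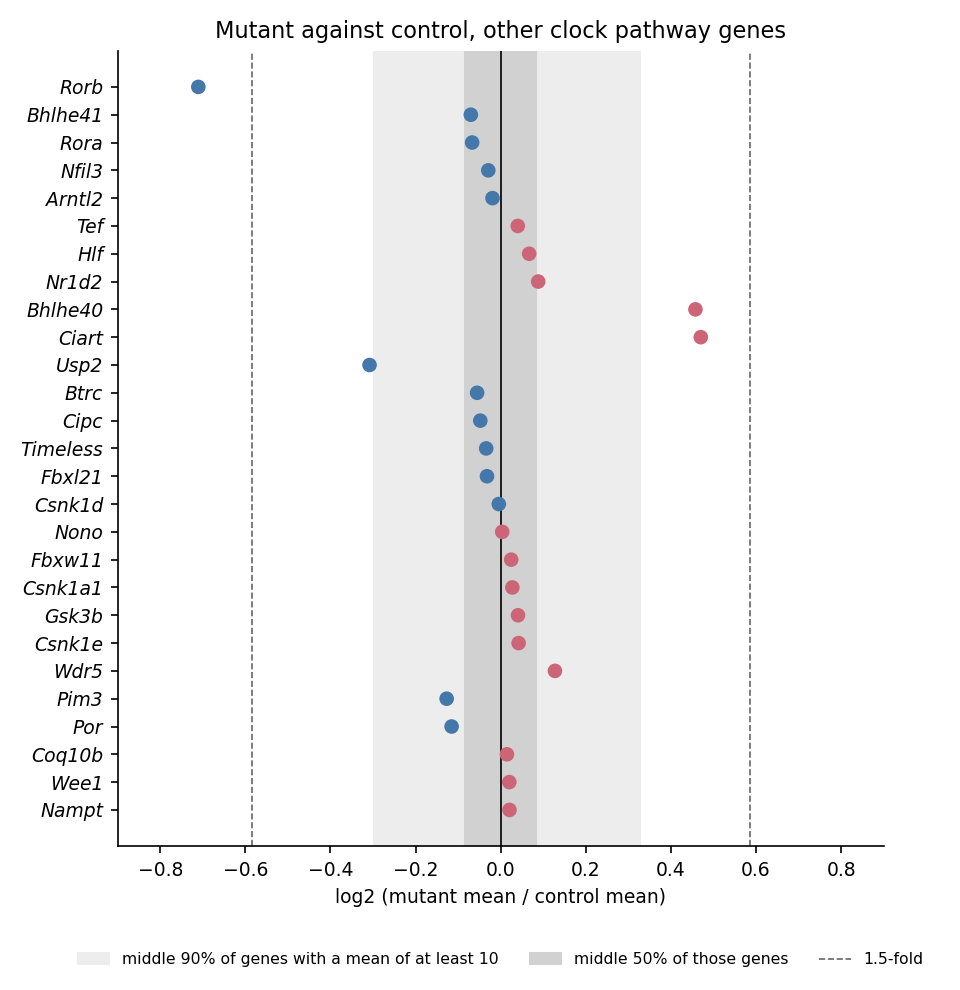
Log2 of the mutant mean over the control mean for 27 other clock pathway genes, grouped from top to bottom as second loop and output factors (10), kinases, ligases and partners (12) and clock-controlled outputs (5). Grey bands hold the middle 50% and 90% of genes whose mean reached 10, and *Rorb* (-0.71) alone is past a dashed 1.5-fold line.

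Because *Per1* also responds to glucocorticoids and to acute signals, genes of these responses were read beside it. Of 9 glucocorticoid-responsive genes, *Tsc22d3* (96.6 in controls and 80.3 in mutants), *Fkbp5* (21.0 and 16.8), *Klf9* (41.9 and 30.8) and *Zbtb16* (1.70 and 0.894) had lower means in the mutants. The other 5 had higher means, among them *Sgk1* (50.4 and 56.9), *Errfi1* (46.0 and 49.1) and *Cdkn1a* (93.8 and 103.2). *Zbtb16* was past 1.5-fold in the lower direction and *Mt1* and *Mt2* in the higher one, against 5.8% and 7.37% of all genes, and all 3 had means under 10. The list had a median log2 difference of 0.09 and a mean of -0.01, and over the 6 genes whose mean reached 10 the median was -0.09, so that these differ in sign. Of 11 immediate early and CREB target genes, 9 had higher means in the mutants, 5 of them past 1.5-fold (*Fos*, *Jun*, *Egr1*, *Atf3* and *Nr4a1*), with a median log2 difference of 0.27. Of these 5, *Jun* and *Egr1* had means that reached 10. *Fosb* was past 1.5-fold in the other direction. *Crem* and *Sik1* of the same list were at -0.03 and 0.09. The part of these responses in the values of *Per1* was not tested.

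The targeted gene *Arid1b* averaged 97.6 in controls and 38.03 in mutants. Of the markers of the labelled tissue, *Msx1*, *Msx2*, *Col1a1* and *Dspp* had control means from 230.6 to 21211, whereas *Barx1*, known from molars, was at 0.932. Of the 10 mesenchymal markers 9 had lower means in the mutants, and *Gli1* went from 106.4 in the controls to 46.1 in the mutants. Only the mutants are described as carrying *Gli1-CreER*, and the part of this line in the *Gli1* value was not tested. Of 11 epithelial markers 9 were more than 1.5-fold higher in the mutants, against 7.37% of all genes. The summed signal of the 11 was 1587 in the controls and 10285 in the mutants. The enamel matrix genes *Amelx*, *Ambn* and *Enam* made up 1115 and 9290 of these sums, and the other 8 markers together 471.6 and 994.9. In bulk RNA of dissected tissue, fewer cells of a type and less RNA per cell cannot be told apart. The 4 Y-linked genes listed had mutant means of 25.3 to 65.3 and lay at or below the value of 3 reads per library in the controls, and *Xist* averaged 3368 in controls and 813.8 in mutants. The mutant means thus held signal of both *Xist* and the Y-linked genes, the control means of *Xist* alone, and differences in sex between the groups cannot be told apart from genotype in these means. The 4 erythroid markers were all more than 1.5-fold lower in the mutants, with a summed signal of 43.3 in controls and 14.6 in mutants. Of the 6 muscle markers 5 were more than 1.5-fold lower in the mutants, with a summed signal of 6.597 in controls and 3.51 in mutants, whereas *Myh4* went from 0.552 to 2.06. Of all genes, 5.8% were lower by that fold. The mean reached 10 in 1 erythroid marker and in 0 muscle markers, and low means scatter more. The summed signals of glia (19.96 in controls and 19.13 in mutants), leukocytes (274.7 and 306.5) and endothelium (269.3 and 270.7) moved less. The part of tissue make-up and of sex in the clock gene values was not tested.

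**Figure D5:**
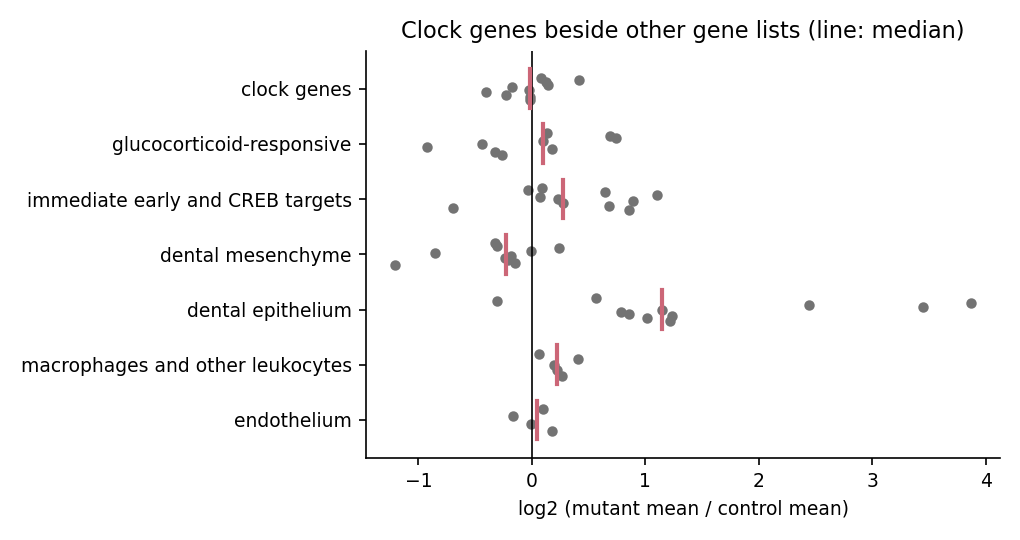
Log2 of the mutant mean over the control mean for each gene (points) of the 10 clock genes and of 6 other lists, with the median of each list as a line. The clock genes are centred at -0.02 and span -0.41 to 0.41, whereas the epithelial markers have a median of 1.15.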

How the data were processed

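Bulk RNA-seq of incisors from 3 control and 3 mutant mice was examined as deposited. Trimming, alignment to mm10 and the comparison of groups were done by the authors in Partek Flow. The submitters' processing notes also name TopHat2 2.0.8. The counting of reads, its use of strand and the annotation are not given in the sources used here. The deposited group means are a normalized signal, not divided by gene length. The authors' upper quartile was 44.57 to 44.58 in every library, and the normalization was inferred from this. The lowest mean of each group equalled the mean of its libraries' minima, from which reads per library were estimated as signal divided by the minimum, minus 1. A further 4 columns hold the authors' p-values, FDR, ratios and fold changes and were not used. In the library summary, 2 numeric columns (the second lowest value and missing values) were not used, and a shorter table of genes selected by the authors' comparison was left out.

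The mutant mean was divided by the control mean, with no pseudocount and no filter, and a gene was called past 1.5-fold. With 1 pooled mean per group no test, SD or p-value was computed. The arithmetic of ratios and calls was checked on a copy of the control means with planted changes and no added noise. That check does not bear on the spread between mice. The members and lists were chosen with earlier results of these data known. All 10 members are named, with the other pathway genes that are past 1.5-fold or closest by family. Genes in the glucocorticoid, immediate early, cell type and sex-linked lists, and *Rora*, *Usp2*, *Csnk1d*, *Csnk1e*, *Pim3*, *Nampt*, *Thra* and *Sphk2*, were named after their values were seen. Some pathway genes are not reported here. Gene positions are 1-based from GENCODE vM21 on GRCm38, the assembly named mm10, and exon lengths are unions of its exons. Promoters are from RefSeq. Alternatives were a threshold 25% above or 20% below the control mean, a fold of 2, centring, a minimum mean of 10, 1 added to the means, equal summed signal and the mean in place of the median. Python 3.11.15, numpy 2.4.6, pandas 2.3.3 and matplotlib 3.10.9 were used.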

Additional observations from a re-analysis of the deposited data

How the results depend on the processing

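No paired analysis was possible because each group has 1 mean per gene, and for the same reason no replicate could be left out. Equal summed signal raised every log2 difference by 0.061, moved the median of the clock genes from -0.019 to 0.041, and turned the sign of *Clock* (0.04), *Arntl* (0.04) and *Per2* (0.04). A threshold of 25% above or 20% below the control mean called 1 clock gene higher and 1 lower, and 2 other pathway genes higher and 1 lower. Among all genes whose mean reached 10, 5.11% were higher and 4.33% lower at this threshold. *Ciart*, among the higher pathway genes, and *Rorb*, the lower gene, had means under 10. The number of other pathway genes past the fold in the lower direction was 0 in place of 1 (*Rorb*) at a fold of 2, when genes under a mean of 10 were left out, and with 1 added to both means. Under centring, the minimum mean, the pseudocount and equal summed signal the number of clock genes past 1.5-fold was 0. Both the absence of values per mouse and the depth of the low genes limit these comparisons.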
